A study of Mus musculus with 6 samples.

Results

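The control samples of a mouse study of deep vein thrombosis are described here: 3 of the 6 libraries of the series, chosen by their labels and not by any measured value. Each was made from inferior vena cavae that had been tied off 24 h earlier, so that blood stood still and a thrombus formed inside the vein. The mice, called WT in the sample titles, were Stingf/f, meaning that both copies of Sting1 carry loxP sites, and their genotype label names no Cre recombinase, so the gene was not deleted by design. Thrombus and surrounding vein were extracted as 1 tissue, and material from 3 thrombi was mixed for each library because a single thrombus gave too little RNA; the libraries are called pools 1, 2 and 3. Messenger RNA was captured by its poly(A) tail and read in pairs of 150 bases. Age and sex are not stated in the labels and no unligated vein was analysed here, so the values describe the thrombosed vein and not what ligation changed.

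A venous thrombus is a mesh of fibrin that holds red cells, platelets and leukocytes. Red cells lack a nucleus but carry globin RNA left from their last stages of maturation, and platelets likewise carry RNA from the megakaryocytes that shed them. Neutrophils enter a ligated vein within hours and monocytes follow them, while the wall contributes endothelium, smooth muscle and the connective tissue, fat and sympathetic nerve fibres around it.

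The libraries held 180068483, 171947534 and 158579864 counts, over 16533 listed genes. Levels are given as CPM, counts on a common library size, scaled between pools with TMM factors of 0.992, 1.058 and 0.953. Where 2 genes are set against each other, the level is divided by transcript length and given as TPM. Of the listed genes, 14030 (84.9%) averaged at least 1 CPM, 8015 at least 10 CPM, 1253 at least 100 CPM and 66 at least 1000 CPM. Only 3 listed genes were at 0 in all 3 pools, so 84.9% is a share of the genes listed and not of all annotated genes. Counts were concentrated in few genes: 109 genes held 50% of them and 4028 held 90%. Each pair of pools differed by more than sampling noise, with a chi-square per degree of freedom of 254 to 600, so none was counted as a library deposited again. What differs between them can be cells, animals or handling, which cannot be told apart; in bulk RNA, fewer cells of a type and less RNA per cell cannot be told apart either.

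The most abundant messenger RNAs came from the alpha- and beta-globin genes, and per length the leading genes of the neutrophil list were S100a9 and its partner S100a8. The bases just before the start of these genes are shown because they lead the profile and because the 2 alpha-globin genes are near copies of each other. Each line gives the 120 bases that end 1 base before the annotated start, 5′ to 3′ on the gene's strand, from RefSeq on GRCm38.p6; capitals mark matches, on either strand, to the TATA box word TATAA, the CCAAT box word CCAAT, the CACCC box word CACCC and the GATA-type word AGATAA.
Hba-a1: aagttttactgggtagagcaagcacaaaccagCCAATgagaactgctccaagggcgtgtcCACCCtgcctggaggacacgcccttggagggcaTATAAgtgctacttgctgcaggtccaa
Hba-a2: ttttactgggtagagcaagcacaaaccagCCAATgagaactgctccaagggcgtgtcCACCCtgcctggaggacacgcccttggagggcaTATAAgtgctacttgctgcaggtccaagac
Hbb-bs: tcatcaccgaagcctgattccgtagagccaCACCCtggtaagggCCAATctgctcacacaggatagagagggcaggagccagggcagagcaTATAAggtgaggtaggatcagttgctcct
Hbb-bt: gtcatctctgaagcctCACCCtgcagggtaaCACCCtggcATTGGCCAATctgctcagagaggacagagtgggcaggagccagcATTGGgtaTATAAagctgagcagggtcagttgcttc
S100a8: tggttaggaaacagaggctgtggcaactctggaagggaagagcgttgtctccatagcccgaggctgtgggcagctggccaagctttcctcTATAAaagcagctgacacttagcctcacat
S100a9: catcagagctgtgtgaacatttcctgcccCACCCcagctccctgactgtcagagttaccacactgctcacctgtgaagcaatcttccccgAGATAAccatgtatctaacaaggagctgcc
The windows are chr11:32283552-32283671 (plus strand) for Hba-a1, chr11:32296372-32296491 (plus) for Hba-a2, chr7:103827929-103828048 (minus) for Hbb-bs, chr7:103813924-103814043 (minus) for Hbb-bt, chr3:90668951-90669070 (plus) for S100a8 and chr3:90695722-90695841 (minus) for S100a9. The 4 globin windows each held a TATAA word, a CCAAT word and a CACCC word, which are found in 11.8%, 21.3% and 31.7% of the 32851 RefSeq promoter windows of this length. The S100a8 window held the TATA word, and the S100a9 window held the CACCC word and the GATA-type word, the latter found in 4.36% of windows. The Hba-a1 and Hba-a2 windows share a run of 117 identical bases, against 14 for Hbb-bs and Hbb-bt. A match is a string of letters and not a measured site.

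The 10 genes with most counts took 33.9% ± 1.23 of each library (SD, n = 3), the top 100 took 49.4% ± 1.67 and the top 1000 took 72.3%. Of the 20 most abundant genes by mean CPM, 17 were among the top 20 of all 3 pools. They fell into 4 kinds: 4 adult globins, 8 genes of the mitochondrial genome with 1 nuclear copy of such a gene, the iron-storage subunits Fth1 and Ftl1, and 5 genes of blood cells and the cytoskeleton. The last are Tmsb4x (thymosin beta 4, which binds actin monomers), Actb (beta-actin), S100a9, Srgn (serglycin, the proteoglycan core of leukocyte and platelet granules) and Ctla2a (an inhibitor of cysteine proteases).

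**Figure D1:**
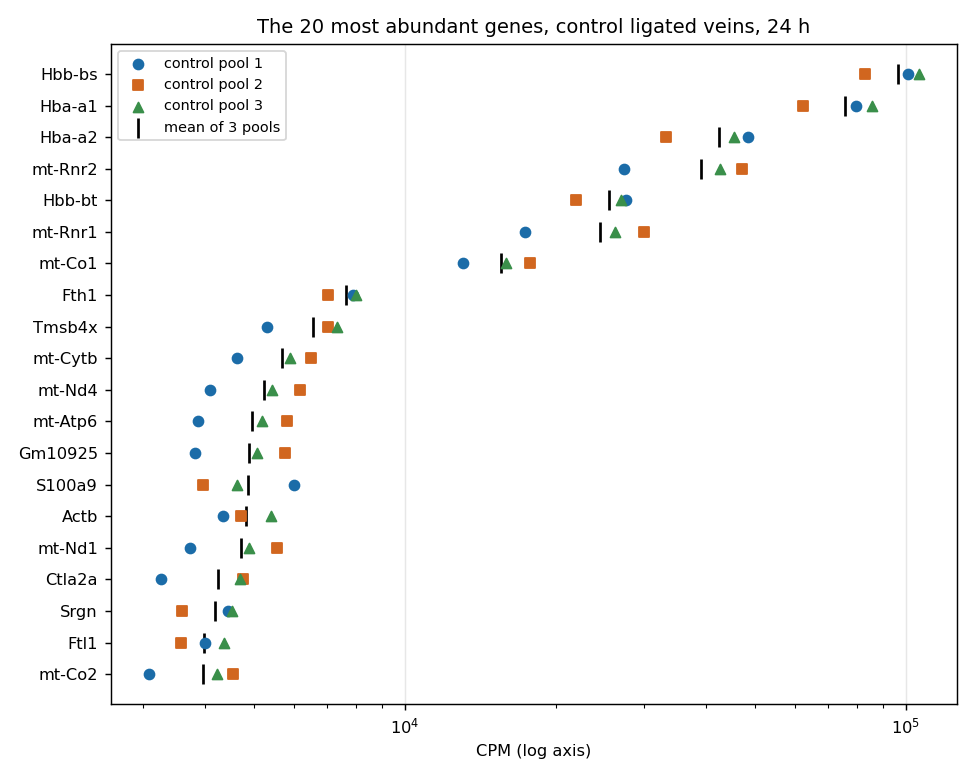
CPM (log axis) of the 20 genes with the highest mean in the control pools; each marker is 1 pool and the bar is the mean of 3. The 4 adult globins are lowest in pool 2 and the mitochondrially encoded genes are lowest in pool 1.

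Globin genes, 10 of them, took 25.5%, 21.2% and 25.2% of the counts in pools 1, 2 and 3, a mean of 24.0% ± 2.40 (SD, n = 3). Hbb-bs, an adult beta-globin, stood at 101016, 82789 and 106296 CPM, lowest in pool 2. Hba-a1, an adult alpha-globin, had 79562, 62401 and 85510 CPM, and its neighbour Hba-a2 had 48439, 33308 and 45400 CPM. Hbb-bt, the second adult beta-globin, had 27656, 21962 and 27081 CPM. Within the globin counts the split was steady, whatever the total: Hbb-bs took 40.2% ± 0.989, Hba-a1 31.5% ± 0.750, Hba-a2 17.5% ± 1.17 and Hbb-bt 10.6% ± 0.369 (SD, n = 3). The 2 members of each pair cannot be fully told apart, since 377 of the 661 150-base stretches of the Hba-a1 transcript (57.0%) also occur in Hba-a2, and 281 of the 616 of Hbb-bs (45.6%) in Hbb-bt. On the length-corrected scale the globins took 46.1% of the profile, with Hbb-bs at 181683 ± 13219 TPM and Hba-a1 at 134558 ± 13695 TPM (SD, n = 3).

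Outside the globins, the genes of the red cell list with the highest CPM were Alas2, Bnip3l and Mkrn1. Alas2, the first enzyme of haem synthesis in erythroid cells, had 1322, 952.6 and 1224 CPM, lowest in pool 2 like the globins. Bnip3l, which clears mitochondria from reticulocytes, had 389, 335.6 and 425.6 CPM. Mkrn1, a ubiquitin ligase, had 320.7, 369.6 and 408.8 CPM, lowest in pool 1 and so unlike the globins. The part of other cells in the values of Bnip3l and Mkrn1 was not tested. Membrane and nuclear-stage genes were scarce per length: Slc4a1, the anion exchanger band 3, stood at 3.70 ± 0.547 TPM and Gata1, the erythroid and megakaryocyte factor, at 8.81 ± 1.37 TPM, beside 701 ± 93.9 TPM for Alas2 (SD, n = 3 each). Of 30 genes on the list 25 had values, 24 reached 1 CPM and 1 of these had a range between pools of at least 2-fold, where 7.5% of all 14030 genes at that level did.

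The mitochondrial genome's 34 listed genes took 8.56%, 14.4% and 11.7% of the counts, 11.6% ± 2.95 (SD, n = 3), so pool 1 was lowest and pool 2 highest. Most of it was ribosomal RNA: mt-Rnr2, the large subunit RNA, had 27356, 47045 and 42529 CPM and mt-Rnr1, the small subunit RNA, had 17413, 29995 and 26292 CPM. Together they took 4.44%, 8.15% and 6.56% of the counts, although poly(A) selection was used. By CPM, not corrected for length, mt-Co1 of cytochrome c oxidase led the protein-coding genes with 13078, 17783 and 15939 CPM. Behind it came mt-Cytb, mt-Nd4 and mt-Atp6, and each of these 4 genes was also lowest in pool 1. Per length mt-Co1 led too, at a mean of 14684 TPM, but mt-Atp6 came next at 10598 TPM. Nuclear genes that are near copies of mitochondrial ones, 7 of them, took a further 1.65% ± 0.370: Gm10925 (3820, 5769 and 5070 CPM) shares all of its 50-base stretches with mt-Atp6, and its counts cannot be told apart from those of that gene. The cytosolic ribosomal protein genes, 86 in all, took 2.04% ± 0.217.

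Genes that mark platelets were abundant and were lowest in pool 1 for 28 of 32 detected members, where 34.7% of all 14030 genes were lowest there; the count was 28 under each of the 4 scalings tried. Ppbp, the precursor of the chemokine NAP-2 in alpha granules, had 1309, 1579 and 1780.2 CPM. Pf4, platelet factor 4, had 1171, 1685 and 2019 CPM, and Nrgn, neurogranin, which platelets also carry, had 1408, 1790.3 and 2056 CPM, both in the same order of pools. Per length Pf4 stood at 3254 ± 780 TPM, Ppbp at 2078 ± 280 TPM and Gp9, a subunit of the receptor for von Willebrand factor, at 814 ± 118 TPM (SD, n = 3). Itga2b, the alpha chain of the fibrinogen receptor, had 809, 954 and 1092 CPM, and its partner Itgb3 had 225, 278 and 314 CPM. Thbs1, thrombospondin 1, which other cells of the clot and wall make as well, had 1376, 1539 and 1475 CPM. The receptors P2ry12 for ADP (201, 292 and 301 CPM) and Clec1b for podoplanin (416, 570.3 and 574 CPM) were each lowest in pool 1. The thrombin receptor gene F2rl3 was low, near the 1 CPM cut, at 0.957, 1.04 and 1.26 CPM (171, 190 and 191 counts). Summed over the 33 genes the list had 10858, 13483 and 14983 CPM. Of the detected members 1, the thromboxane receptor Tbxa2r (1.28, 2.34 and 1.02 CPM), ranged by at least 2-fold, where 7.5% of all genes did.

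Mature neutrophil genes set pool 2 apart instead. All 30 members of that list were detected and 30 of 30 were lowest in pool 2 (26 with library totals as the scale), where 38.7% of all genes were lowest there. S100a9 and S100a8, the subunits of calprotectin, had 6006, 3957 and 4625 CPM and 4144, 2725 and 3458 CPM. On the length-corrected scale S100a9 was the eighth gene of the profile with 13476 ± 2808 TPM, and S100a8 had 7162 ± 1353 TPM (SD, n = 3). Lcn2, the iron-chelator-binding lipocalin of granules, had 2709 CPM in pool 1, 1199 CPM in pool 2 and 2139 CPM in pool 3. Csf3r, the receptor for G-CSF, had 2079.8, 1031 and 1673 CPM, and Retnlg, a resistin-like protein, had 1813, 1019 and 1942 CPM. The widest ranges were those of Mmp8, neutrophil collagenase, with 581, 155 and 376 CPM, and Cd177, a surface protein of neutrophils, with 107, 33.7 and 70.2 CPM. In all, 7 of the 30 ranged by at least 2-fold, where 7.5% of all genes did. Ly6g, the usual antibody target on mouse neutrophils, was low in counts at 20.6, 14.2 and 22.3 CPM. The summed list had 25681, 15000 and 20964 CPM.

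Among granule proteins that are made in the bone marrow, Chil3, Ngp and Ltf were highest in pool 1 and lowest in pool 2. Chil3, a chitinase-like secreted protein, had 1173, 505 and 920.5 CPM and Ngp, neutrophilic granule protein, had 234, 78.3 and 158 CPM. Ltf, lactoferrin, had 4.63, 1.66 and 2.92 CPM, and Camp, cathelicidin, averaged under 1 CPM in the 3 pools, at 0.935, 0.566 and 0.973, highest in pool 3. Mpo, Elane and Ctsg, which mark promyelocytes, were not analysed here, as were 2 others of the 11 genes. Prtn3, proteinase 3, departed from that order with 1.72, 2.02 and 2.34 CPM. Of the 5 detected genes 3 ranged by at least 2-fold, where 7.5% of all genes did.

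Of 30 detected monocyte and macrophage genes 0 ranged by 2-fold, beside 7.5% of all genes, and their median range of 1.29-fold was near the 1.27-fold of all genes. Lyz2, lysozyme of myeloid cells, had 1469.9, 1764 and 1932.5 CPM, lowest in pool 1, unlike the neutrophil list. Ctsd, a lysosomal aspartic protease, had 1462.5, 1061 and 1289.6 CPM, and Ctsb, a cysteine protease, had 863, 732 and 763 CPM, both lowest in pool 2. Ccr2, which brings monocytes in from blood, had 107, 113 and 131 CPM, and Csf1r, the receptor that monocytes and macrophages need, had 174, 149.6 and 172 CPM. The receptor Cx3cr1 of patrolling monocytes had 10.4, 15.1 and 12.9 CPM, and Adgre1, which encodes F4/80, had 27.2, 28.2 and 26.7 CPM. Itgam, shared with neutrophils, had 1000.6, 551 and 815 CPM and so moved with the neutrophil list.

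Resident macrophage genes were present at lower levels, with C1qb of complement at 59.3, 59.9 and 53.6 CPM, the mannose receptor Mrc1 at 25.5, 25.3 and 21.8 CPM and Lyve1 at 37.6, 33.4 and 32.2 CPM. By CPM the leading genes of that list, Pf4 and F13a1, are also platelet genes, and the third, Selenop, had 170.2, 168 and 125 CPM. Among genes of lipid-loaded and Spp1-positive macrophages, Cd9, a tetraspanin that platelets carry too, had 1163, 1432 and 1439.7 CPM. Hmox1, which breaks down haem, had 948, 801 and 982 CPM, and Apoe had 633, 564 and 885 CPM. Spp1, osteopontin, had 365, 444 and 422 CPM and Arg1, arginase 1, had 531, 448 and 704 CPM, while Gpnmb and Trem2 stayed between 8.68 and 13.9 CPM.

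Lymphocyte genes were scarce and leaned to pool 2. Of 26 T and NK cell genes 20 were detected, and 20 of 20 were highest in pool 2 under each of the 4 scalings (25 of all 26 with no filter), where 35.2% of all genes were highest there. Trbc2, a constant segment of the T-cell receptor, had 7.97, 14.6 and 13.5 CPM, and the chemokine Ccl5 and the cytokine receptor Il7r had 13.1, 17.2 and 13.8 CPM and 13.5, 17.4 and 13.9 CPM. B-cell genes had the same leaning, with 16 of all 17 measured genes highest in pool 2. Ighm, the heavy chain of IgM, had 34.0, 42.6 and 27.9 CPM, Igkc had 24.9, 34.0 and 19.96 CPM, and Ighd, which naive B cells express, had 9.26, 24.2 and 7.82 CPM.

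Antigen presentation genes were also highest in pool 2, for 10 of 13 detected genes of the dendritic cell list, where 35.2% of all genes were. The invariant chain Cd74 had 132, 184 and 124 CPM, H2-Aa had 55.1, 84.2 and 60.02 CPM and H2-Ab1 had 54.1, 77.6 and 62.5 CPM. Genes that define dendritic cells themselves were low, with Xcr1 at 1.35, 1.72 and 1.72 CPM and Flt3 at 1.97, 2.26 and 2.33 CPM. Mast cell proteases were low and highest in pool 1: Tpsb2, a tryptase, had 4.18, 1.24 and 0.642 CPM, Cma1, a chymase, had 2.22, 0.775 and 0.529 CPM and Cpa3 had 2.57, 0.539 and 0.443 CPM. Siglecf, of eosinophils, had 24.9, 11.9 and 13.8 CPM. The other eosinophil genes of the list, Epx, Prg2, Ccr3 and Il5ra, were not analysed here or averaged under 1 CPM. Kit and Gata2, which mast cells share with other cells, had 14.0, 14.9 and 14.4 CPM and 14.6, 17.5 and 15.6 CPM.

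**Figure D2:**
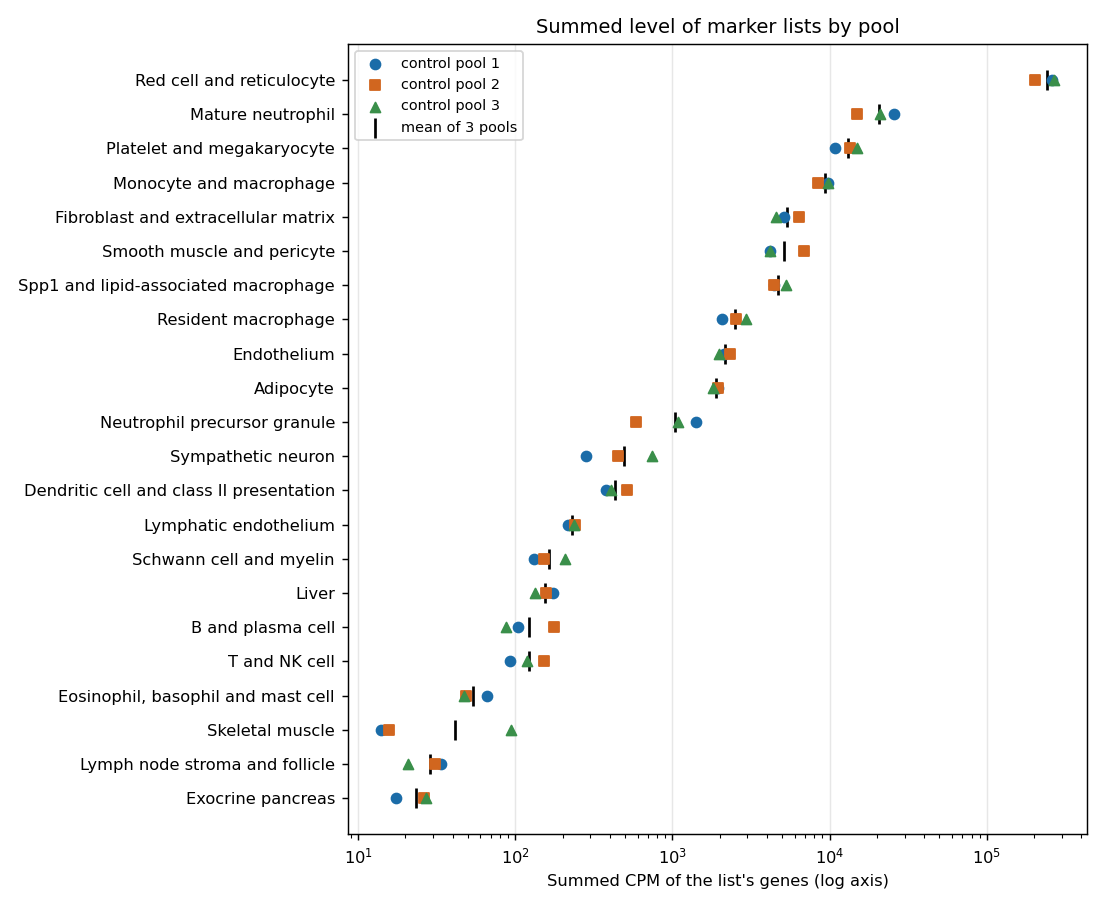
Summed CPM (log axis) of each marker list in the 3 control pools, with the mean as a bar, for lists with a mean of at least 10 CPM. Sums depend on how many genes a list has and on their lengths, so pools are to be compared within a row. The skeletal muscle and sympathetic neuron lists range most, and both are highest in pool 3.

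The vessel wall was represented by endothelial, smooth muscle and matrix genes. All 33 endothelial genes were detected, and 24 of them were highest in pool 2 (24 to 29 over the 4 scalings), where 35.2% of all genes were. Of the 33, 23 were lowest in pool 3 (23 to 25 over the 4 scalings), where 26.6% of all genes were. Vwf, which platelets carry as well, had 307, 380.0 and 354 CPM. Pecam1, a junction protein also found on platelets and leukocytes, had 218, 254 and 208 CPM. Thbd, thrombomodulin, which turns thrombin towards protein C activation, had 170.5, 194 and 187 CPM. Cdh5, the cadherin that defines endothelium, had 119, 111 and 95.7 CPM, and Emcn, endomucin of veins and capillaries, had 149, 146 and 146 CPM, nearly level across the pools. Nr2f2, the factor of venous identity, had 29.2, 44.8 and 26.9 CPM. Sele, E-selectin of activated endothelium, was low with 3.54, 4.21 and 4.33 CPM, and Selp, P-selectin of endothelium and platelets, had 124, 121 and 100.1 CPM. Ptprb, a phosphatase of endothelial junctions, followed that lean with a wider range, at 36.8, 45.3 and 9.24 CPM. Its range was 4.90-fold, against a list median of 1.24-fold.

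Smooth muscle genes set pool 2 apart. Of 24 detected genes 23 were highest there (23 to 24 over the 4 scalings), where 35.2% of all genes were. A range of at least 2-fold was seen for 14 of the 24, beside 7.5% of all genes. Acta2, smooth muscle actin, had 721, 1516 and 576 CPM, and Tagln, transgelin, had 435, 855 and 383 CPM. Myh11, the smooth muscle myosin heavy chain, had 135, 305 and 113 CPM and Cnn1, calponin, had 49.1, 145 and 39.7 CPM. In each of these 4 genes pools 1 and 3 lay close together and pool 2 lay above both. The member with the smallest lean was Pln, phospholamban, at 1.19, 1.27 and 1.15 CPM, and the exception was Myl9, a myosin light chain that platelets also express, with 717, 901 and 966 CPM and its highest value in pool 3. Flna, filamin A, had 774, 1033 and 780 CPM.

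Matrix genes leaned the same way: 22 of 32 were highest in pool 2, where 35.2% of all genes were. In pool 3, 26 of the 32 had their lowest value, beside 26.6% of all genes. Col3a1 had 280.3, 419 and 179.7 CPM, Col1a1 had 188, 277 and 134 CPM and Eln, elastin, had 104, 174 and 65.1 CPM. Sparc, a matrix protein that platelets also hold, had 616, 784 and 589 CPM, Fn1, fibronectin, had 564, 733 and 694 CPM, and Gsn, gelsolin, had 774, 639 and 671 CPM. Some fibroblast genes differed from the collagens in being highest in pool 1: Dcn, decorin, had 273, 223 and 149 CPM, Pdgfra had 25.7, 22.8 and 13.6 CPM and Dpt, dermatopontin, had 21.1, 16.1 and 8.66 CPM. Tnc, tenascin C, which is made in injured tissue, had 416, 765 and 477 CPM.

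Fat and lymphatic genes were measurable in every pool. Fabp4, the fatty acid carrier of adipocytes and of capillaries, had 544, 616 and 523 CPM, Cfd, adipsin, had 448, 487 and 499 CPM and Pnpla2, a triglyceride lipase, had 367, 221 and 266 CPM. Adipoq, adiponectin, which defines adipocytes, had 37.7, 51.4 and 40.8 CPM. Ucp1, of brown fat, had 2.68, 0.418 and 4.45 CPM, the widest range of that list. Prox1, the factor that defines lymphatic endothelium, had 2.93, 3.77 and 3.67 CPM.

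Nerve genes set pool 1 and pool 3 at opposite ends. All 19 genes of the sympathetic neuron list were detected, 19 of 19 were lowest in pool 1 and 18 were highest in pool 3, in each of the 4 scalings, where 31.1% of all genes were highest there. Th and Dbh, which make dopamine and noradrenaline, had 17.1, 31.4 and 54.0 CPM and 30.8, 53.3 and 86.6 CPM. Npy, the neuropeptide co-released with noradrenaline, had 31.6, 42.2 and 127 CPM, and Uchl1, a ubiquitin hydrolase of neurons, had 29.7, 44.9 and 68.8 CPM. Of the 19 genes, 15 ranged by at least 2-fold, where 7.5% of all genes did. Schwann cell genes shared the lean, with 10 of all 11 measured genes highest in pool 3: Sox10, the factor that defines the lineage, had 4.61, 5.03 and 12.4 CPM. Mbp and Pmp22, of myelin, had 54.8, 51.5 and 59.7 CPM and 31.7, 39.8 and 55.2 CPM.

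Skeletal muscle genes were low in pools 1 and 2 and higher in pool 3. Over all 18 genes measured, with no filter on low values, 17 were highest in pool 3, beside 31.1% of the 14030 detected genes. Pool 3 had 15 of the 18 at 1 CPM or more, against 4 in pool 1 and 5 in pool 2. The 14 that averaged at least 1 CPM mostly did so through pool 3, so no count over them is given. Acta1, skeletal actin, had 0.666, 1.52 and 13.9 CPM, Atp2a1, the calcium pump of fast fibres, had 0.403, 0.522 and 10.7 CPM and Ckm, muscle creatine kinase, had 0.313, 0.522 and 10.02 CPM. The summed list had 14.0, 15.8 and 94.0 CPM. Heart-type genes did not follow: Actc1 had 1.43, 4.10 and 4.17 CPM and Ryr2 had 1.14, 1.88 and 1.60 CPM, and 4 of those 8 genes were not analysed here.

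Few genes of other organs had values. Of the 8 liver genes, Trf and Cyp2e1 had values (121, 78.0 and 91.3 CPM; 52.4, 77.8 and 42.1 CPM), and 6, the albumin gene among them, were not analysed here. The kidney list had Aqp2 alone, at 0.425, 0.731 and 0.457 CPM, and the pancreas list had Cela1 alone, at 17.4, 26.1 and 26.9 CPM. Of the adrenal list Star led by CPM, with 5.36, 4.69 and 6.25 CPM. Of 11 mesothelial genes 3 had values and 1, Gpm6a, reached 1 CPM.

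**Figure D3:**
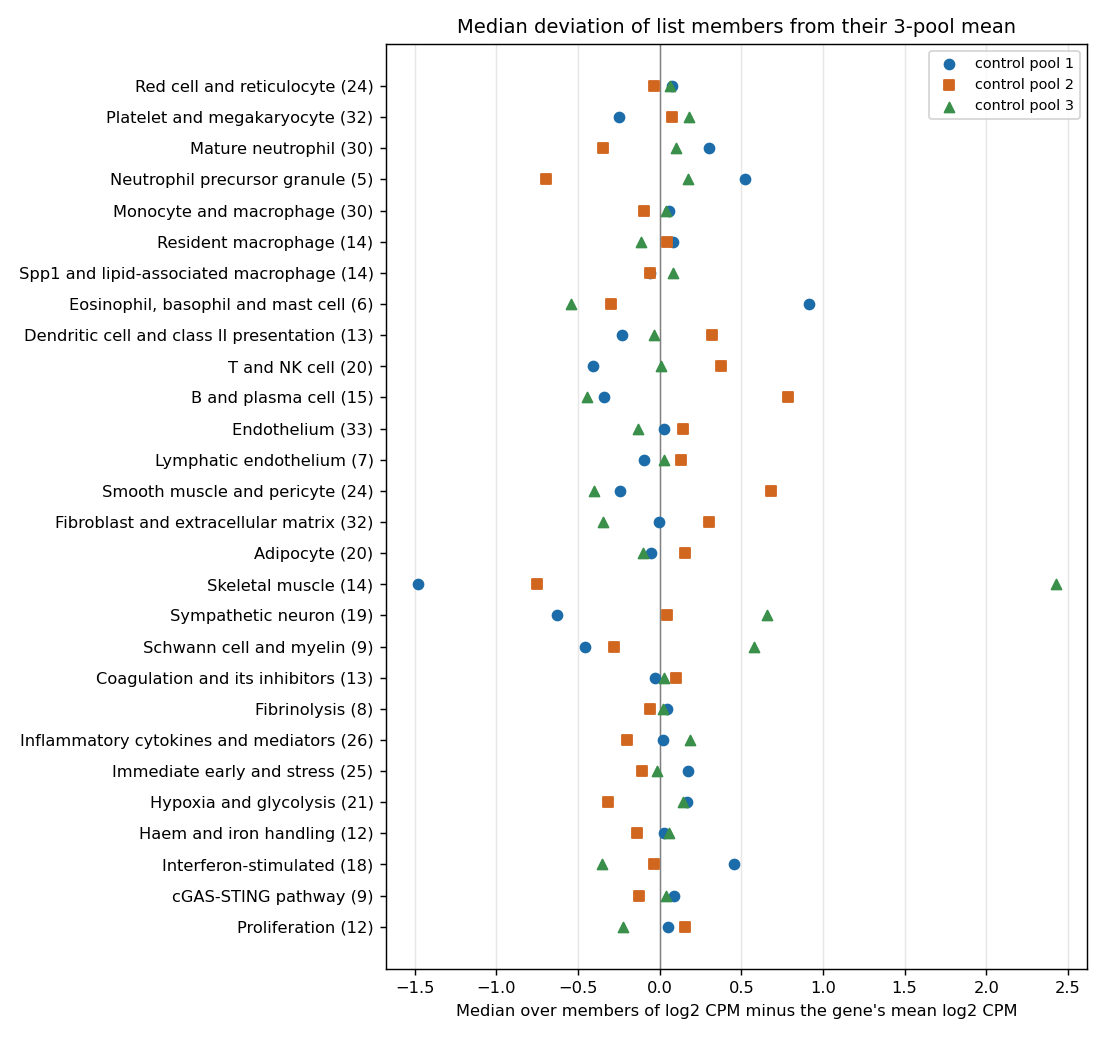
The median over a list's genes of log2 CPM minus the gene's own mean over the 3 control pools, 1 marker per pool. Lists with at least 5 detected genes are shown (number in brackets), except the sex-linked list. The skeletal muscle row rests on genes that mostly reached 1 CPM through pool 3, so its medians are not read. The interferon-stimulated medians run from 0.45 in pool 1 to -0.35 in pool 3.

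Of 13 detected coagulation genes and 8 fibrinolysis genes 0 ranged by 2-fold, beside 7.5% of all genes. The median range was 1.28-fold and 1.25-fold, near the 1.27-fold of all genes. F5, factor V, had 219, 309 and 301 CPM, F13a1, the fibrin-linking transglutaminase subunit, had 271, 243 and 383 CPM, and F10, factor X, had 132, 90.8 and 139.6 CPM. F3, tissue factor, which starts the extrinsic pathway, had 24.3, 25.4 and 24.6 CPM. Plasma proteins supplied by the liver cannot be followed in this way: the 3 fibrinogen chains and protein C were not analysed here, and Serpinc1, antithrombin, was near 0 at 0.218, 0.330 and 0.384 CPM. Of the plasminogen activators, Plau, urokinase, stood at 11.7 ± 1.82 TPM and Plat, tissue plasminogen activator, at 5.30 ± 1.40 TPM on the length-corrected scale (SD, n = 3 each). Anxa2 and S100a10, which together hold plasminogen at the cell surface, had 559.6, 466 and 538 CPM and 241, 299 and 344 CPM.

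Inflammatory mediators were expressed in all 3 pools, and 2 of 26 detected genes ranged by at least 2-fold, near the 7.5% of all genes. By CPM, not corrected for length, Cxcl2, a neutrophil chemokine, led with 1133, 798 and 1156 CPM. Ccl6 followed with 769.7, 585 and 675 CPM and Il1b with 467, 396 and 530.3 CPM. Il6 had 59.3, 65.1 and 69.2 CPM and Tnf had 13.2, 12.5 and 17.0 CPM. The 2 genes over 2-fold were Csf3, which encodes G-CSF, with 31.9, 15.8 and 33.4 CPM, and Nos2, inducible nitric oxide synthase, with 345, 151 and 216 CPM, both lowest in pool 2. Il10 averaged under 1 CPM, with 0.588, 0.737 and 1.22 CPM.

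Immediate early and stress genes were detected in full, 25 of 25, with a median range of 1.46-fold. Dusp1, a phosphatase that switches MAP kinases off, had 721, 414 and 444 CPM, and the transcription factors Junb and Jun had 616, 375 and 515 CPM and 567, 305 and 450 CPM, each highest in pool 1. Fos had 164, 118 and 131 CPM. The heat shock genes Hspa1a and Hspa1b, near copies of each other whose reads may be split, had 187, 139 and 103 CPM and 181, 144.5 and 103 CPM.

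Glycolysis and hypoxia genes moved together. Of 21 detected genes 20 were lowest in pool 2 in each of the 4 scalings, where 38.7% of all genes were. Their median range was 1.44-fold. Pkm, pyruvate kinase, had 2455, 1934 and 2467 CPM, Aldoa, aldolase A, had 1827, 1307 and 1832 CPM and Ldha, lactate dehydrogenase A, had 1356, 1055 and 1418 CPM. The glucose transporter Slc2a1 had 478, 310.1 and 421 CPM and the oxygen sensor Egln3 had 211, 138 and 206 CPM. Ndrg1, a hypoxia-induced gene, was the exception, with 156, 171 and 196 CPM. The summed list had 12433, 8978 and 12201 CPM, the same order of pools as the mature neutrophil list; the part of neutrophil RNA in it was not tested.

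Genes that handle haem and iron were high in all pools. The ferritin subunits Fth1 and Ftl1 had 7869, 7039 and 7998 CPM and 3986, 3580.3 and 4357 CPM. Per length Ftl1 stood at 4284 ± 141 TPM and Fth1 at 3184 ± 96.6 TPM (SD, n = 3). Hp, haptoglobin, which binds free haemoglobin, had 919, 774 and 799 CPM. The members that ranged by at least 2-fold were 2 of 12, beside 7.5% of all genes. They were the haemoglobin scavenger receptor Cd163 (18.0, 8.01 and 10.8 CPM) and the iron exporter Slc40a1 (63.6, 30.8 and 45.6 CPM), both highest in pool 1.

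Interferon-stimulated genes leaned to pool 1. All 18 were detected, and 15 were highest there, where 33.7% of all genes were. In pool 3, 14 were lowest (14 to 17 over the 4 scalings), beside 26.6% of all genes. Ifitm3, which blocks virus entry, had 782, 642 and 624 CPM, Irf7, the factor that amplifies the response, had 264, 144 and 124 CPM and Rsad2, viperin, had 134, 77.5 and 79.5 CPM. Isg15 had 110.0, 75.8 and 50.9 CPM and Ifit1 had 119, 76.6 and 53.3 CPM, both lowest in pool 3. The widest range was that of Oasl1 with 75.8, 25.2 and 28.2 CPM, and 8 of the 18 ranged by at least 2-fold, beside 7.5% of all genes. Cxcl9, which interferon gamma induces, was an exception with 15.4, 25.5 and 13.9 CPM and its highest value in pool 2.

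The pathway that the study manipulates in its other group was measurable in the controls. Sting1, the adaptor of the DNA sensor cGAS, had 25.8, 31.5 and 27.8 CPM, and Cgas itself had 5.83, 4.48 and 4.08 CPM. On the length-corrected scale Sting1 stood at 15.1 ± 2.33 TPM and Cgas at 1.69 ± 0.357 TPM (SD, n = 3). The kinases Ikbke and Tbk1 had 68.4, 51.4 and 76.3 CPM and 40.6, 31.6 and 37.4 CPM, and the factor Irf3 had 40.1, 34.9 and 39.2 CPM. Of 9 genes 1 ranged by at least 2-fold, near the 7.5% of all genes. It was Trex1, the nuclease that removes cytosolic DNA, with 30.2, 14.9 and 17.5 CPM.

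Cycling cells left a low signal. Mki67 had 4.85, 6.24 and 5.68 CPM and Top2a had 2.62, 3.70 and 1.86 CPM. Pcna, which leads that list by CPM, had 42.6, 41.7 and 37.2 CPM. Next by CPM, Mcm6 and Mcm4 had 20.3, 21.9 and 17.7 CPM and 11.3, 11.7 and 9.18 CPM. Of the 12 detected genes 11 were lowest in pool 3, where 26.6% of all genes were.

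Across all genes the pools were close. Over the 14030 genes with a mean of at least 1 CPM, the median absolute log2 ratio was 0.25 between pools 1 and 2, 0.17 between pools 1 and 3 and 0.20 between pools 2 and 3. The SD of the signed log2 ratio was 0.50, 0.48 and 0.49 for these pairs. Pearson's r of log2 CPM was 0.974, 0.976 and 0.974 and Spearman's rho 0.981, 0.984 and 0.982; these are taken across genes, which are not independent replicates and share each library's depth and composition. The biological coefficient of variation, edgeR's estimate of spread beyond counting, was 0.210 in common. A range of at least 2-fold was seen for 1052 genes (7.5%), and the median gene ranged by 1.27-fold.

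Counting error was small beside the spread between pools. In genes of 1 to 10 CPM the median coefficient of variation was 15.1%, of which counting alone would give 4.06%, and in genes of 1000 CPM and more it was 16.7%, of which counting would give 0.178%. The share of genes ranging by 2-fold was 12.9% at 1 to 10 CPM, 3.37% at 10 to 100 CPM, 3.71% at 100 to 1000 CPM and 3.03% above. By gene type it was 6.97% for protein-coding genes, 5.87% for pseudogenes and 19.7% for long noncoding and unclassified transcripts. Of the genes that ranged by 2-fold, 444 (3.16% of all) were highest in pool 3, 309 (2.2%) in pool 2 and 299 (2.13%) in pool 1.

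**Figure D4:**
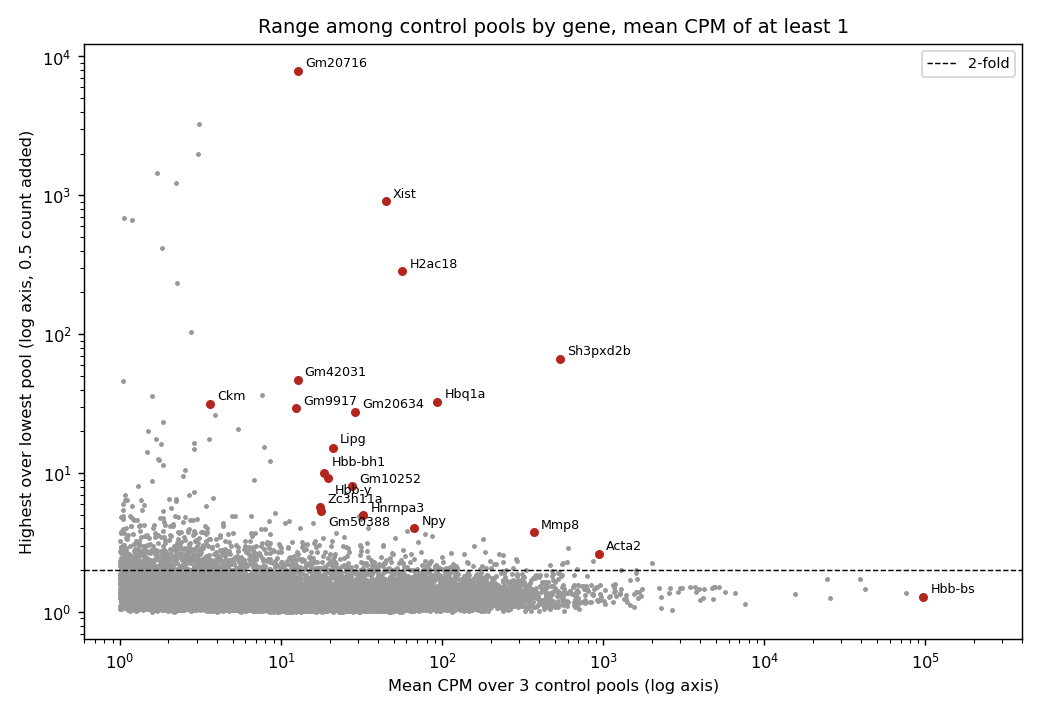
Each point is a gene with a mean of at least 1 CPM: its mean over the 3 control pools (log axis) against the ratio of its highest to its lowest pool (log axis, 0.5 count added to each). The dashed line marks 2-fold; the 15 genes with the widest range at 10 CPM or more are named, with Ckm, Npy, Mmp8, Acta2 and Hbb-bs for orientation.

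A small number of genes differed between pools far more than the rest: 66 genes ranged by at least 5-fold and 39 by at least 10-fold, of which 56 and 31 were protein coding. Gm20716, a predicted gene, had 0 counts in pool 1, where 3 counts would be 0.0168 CPM, and 22.0 and 16.2 CPM in pools 2 and 3, at least 967-fold above that limit. H2ac18, a replication-type histone H2A, had 71.3, 0.341 and 97.8 CPM and was all but missing in pool 2 alone. Histone H2A genes are near copies of each other, which leaves its count uncertain.

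Globin loci held several of these genes. Hbb-bh1 and Hbb-y, embryonic beta-globins, had 46.1, 4.59 and 4.97 CPM and 47.7, 5.17 and 5.59 CPM, so both were about equally high in pool 1. Neither shares a 150-base stretch with Hbb-bs. Hbq1a, a theta-globin at the end of the alpha cluster, had 172, 5.26 and 102 CPM, whereas its relative Hbq1b had 48.8, 90.9 and 113 CPM. These 2 share 73 of the 455 150-base stretches of Hbq1a, so part of their counts may be split between them. Sh3pxd2b, a podosome scaffold, had 23.4, 25.9 and 1562 CPM. In an annotation of an earlier build Sh3pxd2b is the next listed gene beside Hbq1a on chromosome 11. The listed gene after it, Ubtd2, had 1.90, 1.85 and 1.89 CPM, and the gene 3 further on, Stk10, had 50.6, 37.4 and 39.5 CPM. The part of the position of Sh3pxd2b in its values was not tested. Embryonic globin values are small beside the adult ones: Hbb-y took 0.0186% of the globin counts in pool 1, and Hba-x, embryonic alpha-type globin, had 39.9, 22.4 and 32.7 CPM.

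Sex-linked genes also separated the pools. Xist, the RNA that coats the inactive X chromosome in females, had 40.6 and 92.8 CPM in pools 1 and 2 and 0.0993 CPM, or 15 counts, in pool 3. The Y-linked genes Ddx3y and Eif2s3y had 43.3, 24.7 and 54.3 CPM and 42.5, 27.4 and 65.0 CPM, lowest in pool 2, and Kdm5d and Uty followed with 9.17, 5.16 and 9.87 CPM and 6.95, 4.61 and 7.66 CPM. Pools 1 and 2 thus held both kinds of transcript and pool 3 held Y-linked ones with nearly no Xist. The labels do not state the sex of the mice, and the part of this difference in the other values was not tested.

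The remaining genes of the widest range were scattered over the genome. Lipg, endothelial lipase, had 46.4, 3.08 and 13.5 CPM, Hnrnpa3, an RNA-binding protein with many processed copies, had 68.2, 14.9 and 13.7 CPM and Zc3h11a, a zinc finger protein of mRNA export, had 18.5, 4.98 and 28.6 CPM. The predicted and noncoding genes Gm42031, Gm9917, Gm20634, Gm10252 and Gm50388 had their lowest value in pool 1, 2, 1, 3 and 1. The steadiest genes above 100 CPM were Csnk1a1, a casein kinase, with 114.8, 114.8 and 115.7 CPM, and Tln1, the integrin adaptor talin 1, with 572, 567 and 573 CPM. Atp5b of ATP synthase (352, 356 and 356 CPM), the coatomer gene Copa (173.0, 172 and 174 CPM) and the ribosomal protein gene Rps27 (240.3, 239.7 and 236 CPM) followed.

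**Figure D5:**
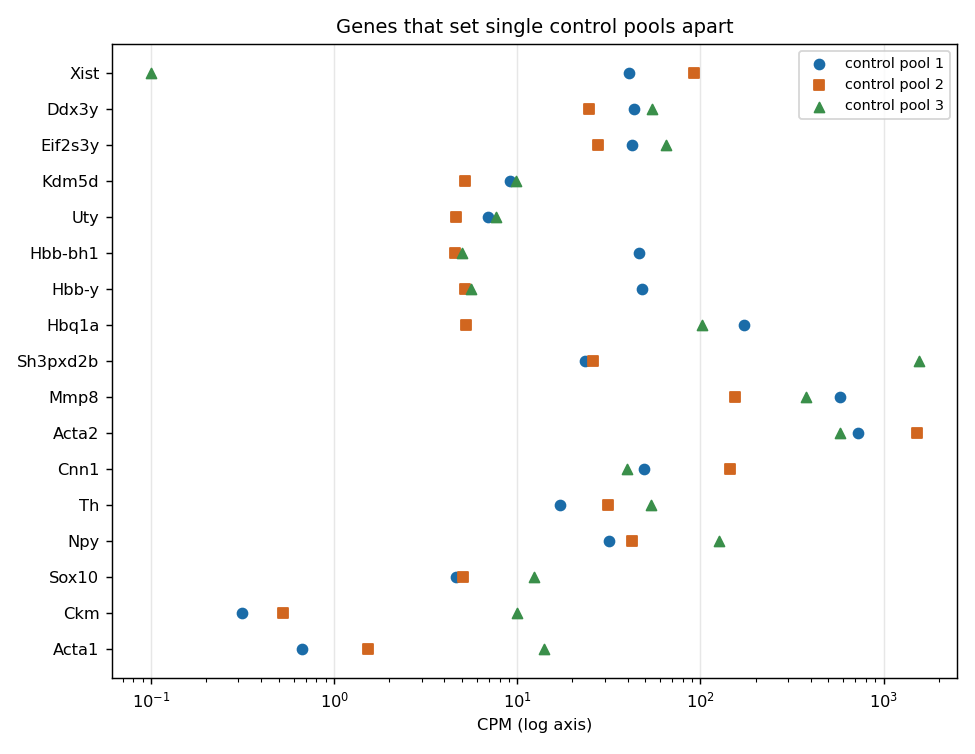
CPM (log axis) in the 3 control pools for sex-linked genes, globin-locus genes and 1 to 3 genes each of the neutrophil, smooth muscle, nerve and skeletal muscle lists. Xist is at 0.0993 CPM in pool 3, Sh3pxd2b is high in pool 3, the embryonic globins are high in pool 1 and Acta2 and Cnn1 are high in pool 2.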

How the data were processed

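The deposited values are raw counts, 1 table per library: per the file contents they are whole numbers that sum to different totals. The submitters' processing notes name build GRCm39, featureCounts (2.0.1), HISAT2 (2.1.0), Trim Galore (0.4.0) and FastQC (0.11.8). Their roles are not stated, and the annotation release, strand setting and handling of multiple matches were not given in the sources used here. For overlapping, antisense and near-identical genes the counts are therefore uncertain.

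CPM were computed here from the deposited counts with edgeR 4.0.16 in R 4.3.3 on TMM-scaled library sizes, and summaries with pandas 2.3.3. TPM used the summed exon length of each gene in GENCODE M21, an annotation of GRCm38, which matched 16492 genes holding 99.9% of counts; the same annotation gave gene types and neighbours, and promoters are RefSeq on GRCm38.p6. A gene was detected at a mean of 1 CPM, and ranges used 0.5 added counts. No groups were compared, so no p-value is given; the knockout libraries were left out because only the control veins are described. A value ± SD covers 3 pools.

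Genes named are the 20 with most CPM, the 10 with most TPM, the 3 leading members of each of 36 lists with defining markers, the 15 with the widest and 5 with the smallest range, Sting1, Lyz2 and sex-linked genes; other list members were chosen after their values were seen. A few genes named by this rule are not reported here. The lists and the description were chosen with earlier results of these data known. Alternatives were library totals, RLE factors, other filters, a base without haemoglobin, immunoglobulin and mitochondrial genes, per-length shares and leaving out each pool. Adding nuclear copies of mitochondrial genes, dropping members shared between lists and counting list members under each scaling or with no filter were added after seeing the data.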

Additional observations from a re-analysis of the deposited data

How the results depend on the processing

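With library totals or RLE factors as the scale, all 36 list levels, as means of 3 pools, stayed within the spread between pools. These scales shifted single pools by at most 0.0807 in log2, so such means could hardly move. The biological coefficient of variation was then 0.214 and 0.210, the mean SD of log2 ratios 0.490 and 0.491 and the genes ranging by 2-fold 1086 and 1058. Without haemoglobin, immunoglobulin and mitochondrial genes 35 list levels moved, by construction. The remaining counts are divided by a smaller total, which raises levels. The red cell and B-cell lists also lost members and fell, from 243000 to 3921 CPM and from 122 to 70.2 CPM. The pool with the highest list sum was the same in 4 scalings for 28 of 36 lists; the exceptions were red cell, monocyte and macrophage, adipocyte, pancreas, coagulation, fibrinolysis, cytokine and haem lists. The filter mattered most: with no filter the biological coefficient of variation was 0.232, the mean SD of log2 ratios 0.578 and the genes ranging by 2-fold 1798, and at 10 CPM or more they were 0.173, 0.381 and 274. Without the abundant genes named above that SD was 0.517. Leaving out a pool gave 454 to 536 genes ranging by 2-fold, fewer because a range over 2 pools is narrower. The 10 leading genes took 7.55% without haemoglobin, immunoglobulin and mitochondrial genes and 58.3% per length, and globins took 46.1% per length. Without members shared with another list, 8 of 16 list levels moved, by construction downwards, since a sum falls when members are dropped. No paired analysis was possible because a single group is described and no result comes from a test. Depth limits little here: at 1 to 10 CPM counting gives a coefficient of variation of 4.06%, and the number of pools limits precision.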
